A study of Mus musculus with 16 samples.

Results

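The genes described here are 10 regulators and targets of the integrated stress response (Atf4, Atf3, Atf5, Ddit3, Trib3, Chac1, Asns, Sesn2, Ddit4 and Nupr1), among the 18138 genes of the intensity table. They were chosen by name for their rise with the Akt inhibitor Akti1/2 in these same arrays, and all 10 were found, each with 1 entry. Their differences between inhibitor-treated and control cells are therefore a description, given with no test. Their course in control cells, and the inhibitor response of other genes of the pathway, from a list drawn up with earlier results of these data known, were tested.

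D10, a fast-growing variant of a mouse Th2 clone, was studied in 8 groups of 2 arrays each. Control cells, and cells pre-incubated for 1 h with 10 µM Akti1/2, an allosteric inhibitor of the kinases Akt1 and Akt2, were each stimulated through CD3 and CD28 with biotinylated antibodies and streptavidin for 0, 2, 6 or 12 h. All groups were grown with IL-2, and the 0 h cells of the inhibitor arm had received the inhibitor without stimulation. The methods call the control cells untreated, while another passage names a solvent, and no source says whether the duplicate arrays came from separate cultures, so p-values measure the spread between these arrays, which may be technical.

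Values are bead intensities corrected for background on the negative control probes, quantile-normalized and given as log2, so that a difference of 1 is a doubling. An array was counted as above background for a gene when its detection p, the share of negative controls that reached the intensity of the gene, was under 0.01. This held on 2 or more of the 16 arrays for 7395 genes, which were tested. Between 6288 and 6907 genes were above background per array, and each of the 2 chips held 1 array of every group. The cells carried the markers of their label: of 13 T cell and Th2 genes, 12 were above background on all arrays and Cd4 on 13. Of 17 markers of other cells, 15 were above background on no array and Ms4a1 on 1. Cd68 was above background on 15 arrays and stood at 7.18 to 7.35 in inhibitor-treated cells at 12 h against 5.78 to 5.90 in control cells, which raised the summed level of those 17 markers to 551 to 569 from 465 to 495 on the linear scale. Without Cd68 the summed level was 405 to 406 against 410 to 435, and the part of Cd68-expressing cells in the results at 12 h was not tested. An array reads RNA from the whole culture, so fewer cells expressing a gene and less RNA of it per cell cannot be told apart.

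In the integrated stress response, kinases that sense amino acid shortage, unfolded protein in the endoplasmic reticulum, double-stranded RNA or lack of haem phosphorylate the translation initiation factor eIF2. General translation then falls while the Atf4 mRNA, whose upstream reading frames normally hold it back, is translated better. ATF4 pairs with C/EBP proteins on composite C/EBP-ATF elements and drives genes for amino acid supply, further transcription factors such as CHOP (the product of Ddit3), and feedback inhibitors. The arrays measured only mRNA, not eIF2 phosphorylation or ATF4 protein.

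The promoters of the members are shown where they hold the core of the composite element, since this is the sequence through which ATF4 is known to act. Windows from 250 bases before to 50 bases after each RefSeq start on GRCm38.p6 were searched on both strands. The core TGATGNAA lay in 5 of the 10 members, against 4.51% of the 27025 genes with a window in the table (3.97% of 32851 windows). In the stretches below, which run 5′ to 3′ on the strand of the gene, the core is in capitals, and where it stands as the reverse complement it begins with TT.
Atf3, chr1:191183390-191183489, minus strand, core 110 to 103 bases before the start: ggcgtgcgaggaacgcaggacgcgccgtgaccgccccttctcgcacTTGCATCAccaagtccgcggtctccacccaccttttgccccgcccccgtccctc
Trib3, chr2:152344028-152344057, minus strand, core at bases 15 to 22 of the transcript: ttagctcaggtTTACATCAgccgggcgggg
Chac1, chr2:119351003-119351102, plus strand, core 193 to 186 bases before the start: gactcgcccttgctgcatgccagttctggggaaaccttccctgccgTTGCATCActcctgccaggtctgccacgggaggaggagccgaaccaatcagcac
Asns, chr6:7693210-7693278, minus strand, core 23 to 16 bases before the start: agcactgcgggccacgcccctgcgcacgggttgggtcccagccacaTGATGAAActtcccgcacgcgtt
Nupr1, chr7:126625527-126625626, minus strand, core 110 to 103 bases before the start: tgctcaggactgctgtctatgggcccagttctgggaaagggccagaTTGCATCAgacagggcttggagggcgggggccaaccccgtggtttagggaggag
Atf3, Chac1 and Nupr1 held the same 8 letters, TTGCATCA. The other members (Atf4, Atf5 with 2 windows, Ddit3, Sesn2 and Ddit4) held no match in these windows. A full CRE, TGACGTCA, and the FOXO core GTAAACA, searched in the same way, were in none of the members' windows and in 2.03% and 4.05% of all genes. A match describes the letters of the window only.

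All 10 genes stood higher in inhibitor-treated than in control cells at 6 and 12 h of stimulation. Both treated arrays lay above both control arrays for 5 of the 10 genes at 0 h, 9 at 2 h, 10 at 6 h and 10 at 12 h. Over all genes tested the same held for 19.3%, 31.2%, 31.7% and 36.8%, and since the members were chosen on this contrast, nothing is read from the excess. The median difference over the 10 genes was 0.20 log2 at 0 h, 1.35 at 2 h, 1.39 at 6 h and 2.08 at 12 h, while the median over all genes lay between -0.019 and -0.002. Treated arrays supplied 6 of the 7 arrays above background for Atf3, 8 of 11 for Sesn2 and 6 of 9 for Nupr1. Atf3 had 1 control array above background where the filter asked for 2, so it was tested only through treated arrays. Its results in control cells, counted below among the 10 genes, are therefore a description. Folds of Atf3, Sesn2 and Nupr1 against a group above background on neither array are given as lower bounds. These bounds are set against the lowest intensity above background.

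**Figure D1:**
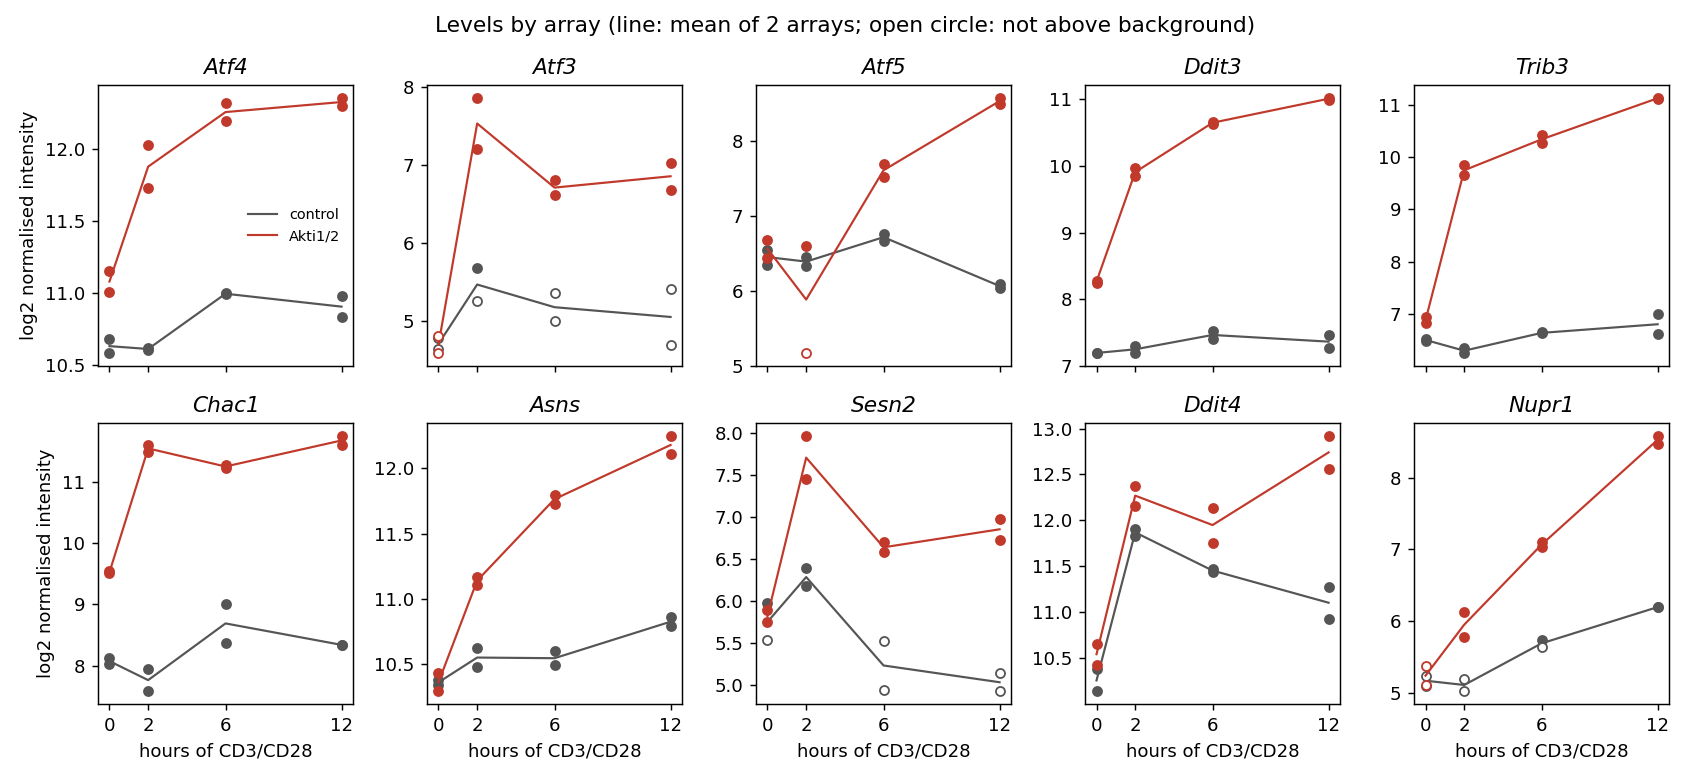
Log2 normalised intensity (y axis) of the 10 genes against hours of CD3/CD28 stimulation (x axis), with 1 dot per array, a line through the mean of the 2 arrays and open circles for arrays not above background, for control and Akti1/2-treated cells. The lines of Ddit3, Trib3 and Chac1 separate by 2 h, from 7.25 to 9.90, 6.30 to 9.75 and 7.77 to 11.55, while those of Atf5 and Nupr1 separate mainly at 6 and 12 h.

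Atf4 encodes the factor at the centre of the response. In control cells its log2 level was 10.68 and 10.58 at 0 h, 10.60 and 10.62 at 2 h, 11.00 and 10.99 at 6 h, then 10.98 and 10.83 at 12 h. In treated cells it was 11.15 and 11.01, 12.03 and 11.73, 12.20 and 12.32, and 12.30 and 12.36. The groups did not overlap at any time, and the treated cells were already higher before stimulation, by 0.45 log2 or 1.37-fold. The difference was 2.41-fold at 2 h, 2.40-fold at 6 h and 2.68-fold at 12 h, with values of 1.12 to 1.47 log2 within single chips at those times.

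Ddit3 encodes CHOP, a C/EBP-family factor that ATF4 induces and that is linked to cell death in prolonged stress. Control arrays stayed between 7.19 and 7.52 throughout. Treated arrays read 8.28 and 8.25 at 0 h, 9.84 and 9.97 at 2 h, 10.66 and 10.63 at 6 h, then 11.02 and 10.99 at 12 h. The gap to control cells therefore widened at each time, from 2.11-fold at 0 h through 6.27-fold and 9.08-fold to 12.5-fold at 12 h. The 2 arrays of a group lay close for this gene, with a pooled SD within groups of 0.07 log2.

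Atf3 encodes an ATF/CREB-family factor that is induced early in many kinds of stress. Control arrays read 4.64 and 4.78 at 0 h, 5.68 and 5.26 at 2 h, 5.0 and 5.36 at 6 h, then 4.70 and 5.41 at 12 h, and 1 of these 8, at 2 h, was above background. Treated arrays read 4.81 and 4.59, then 7.20 and 7.86, 6.61 and 6.81, and 7.03 and 6.68. The treated arrays were above all control arrays once the cells were stimulated and overlapped with them at 0 h. The difference at 2 h was 2.06 log2, or 4.18-fold, and Atf3 was at least 2.04-fold higher at 6 h and at least 2.21-fold higher at 12 h.

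Atf5, a relative of Atf4 that is also controlled at translation, took another course. Control levels were 6.35 and 6.55 at 0 h, 6.33 and 6.45 at 2 h, 6.67 and 6.76 at 6 h, then 6.09 and 6.04 at 12 h. Treated levels were 6.68 and 6.44, 6.60 and 5.17, 7.52 and 7.69, and 8.57 and 8.48. At 2 h the treated arrays lay on either side of the control arrays, 0.27 log2 above on one chip and 1.28 below on the other, where the treated array was not above background. At 6 h the treated cells were 1.85-fold higher, and at 12 h 5.50-fold.

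Nupr1 encodes a small chromatin-associated protein known as a stress-induced target of ATF4. It read 5.10 and 5.24 at 0 h in control cells, 5.20 and 5.02 at 2 h, 5.74 and 5.64 at 6 h, then 6.20 and 6.19 at 12 h. With the inhibitor it read 5.11 and 5.37, 5.78 and 6.12, 7.03 and 7.10, and 8.58 and 8.47. At 0 h all 4 arrays were at background. The treated cells were at least 1.21-fold higher at 2 h, 2.58-fold higher at 6 h, when 1 of the 2 control arrays was above background, and 5.03-fold higher at 12 h, when all 4 were.

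Trib3, a pseudokinase that binds ATF4 and CHOP and acts as a feedback inhibitor, had the largest difference of the 10 at 6 and 12 h. Control arrays lay between 6.25 and 7.0. Treated arrays read 6.82 and 6.94 at 0 h, 9.84 and 9.65 at 2 h, 10.41 and 10.26 at 6 h, then 11.11 and 11.13 at 12 h. Treated and control arrays did not overlap at any time, and the fold was 1.30 at 0 h, 10.9 at 2 h, 12.9 at 6 h and 19.9 at 12 h. TRIB3 protein is also known to bind Akt.

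Chac1 encodes an enzyme that breaks down glutathione and is a target of ATF4. In control cells it read 8.02 and 8.13 at 0 h, 7.95 and 7.58 at 2 h, 9.01 and 8.37 at 6 h, then 8.34 and 8.34 at 12 h. In treated cells it read 9.51 and 9.54, 11.49 and 11.60, 11.23 and 11.27, and 11.60 and 11.75. Among the 10 genes, Chac1 differed most before stimulation, by 2.73-fold, and most at 2 h, by 13.8-fold. At 6 h, where the control arrays were higher and 0.64 apart, the fold was 5.91, and at 12 h it was 10.1.

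Asns encodes asparagine synthetase, a classical amino acid response gene. Its control levels were 10.34 and 10.38 at 0 h, 10.48 and 10.62 at 2 h, 10.60 and 10.49 at 6 h, then 10.86 and 10.79 at 12 h. Its treated levels were 10.43 and 10.29, 11.17 and 11.11, 11.73 and 11.80, and 12.11 and 12.25. The groups overlapped at 0 h and were apart at each stimulated time, by 1.51-fold at 2 h, 2.34-fold at 6 h and 2.56-fold at 12 h.

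Sesn2 and Ddit4 both encode proteins that restrain the growth kinase complex mTORC1, Sesn2 as a leucine sensor and Ddit4 (REDD1) through the TSC complex. Sesn2 read 5.97 and 5.53 in control cells at 0 h, 6.39 and 6.18 at 2 h, 4.94 and 5.52 at 6 h, then 5.14 and 4.92 at 12 h. With the inhibitor it read 5.75 and 5.89, 7.45 and 7.97, 6.70 and 6.58, and 6.73 and 6.98. All 8 treated arrays and 3 control arrays were above background. At 0 h the groups overlapped, at 2 h the treated cells were 2.68-fold higher, and they were at least 1.94-fold higher at 6 h and at least 2.21-fold higher at 12 h.

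Ddit4 had the largest change from 0 h of the 10 genes in control cells, 1.61 log2 at 2 h. Control arrays read 10.38 and 10.14 at 0 h, 11.83 and 11.91 at 2 h, 11.44 and 11.47 at 6 h, then 11.28 and 10.93 at 12 h. Treated arrays read 10.66 and 10.43, 12.38 and 12.16, 12.14 and 11.76, and 12.92 and 12.56. The treated arrays were above the control arrays at each time, but by only 1.22-fold at 0 h, 1.32-fold at 2 h and 1.41-fold at 6 h, where the difference was 0.70 log2 on one chip and 0.29 on the other. At 12 h, when the control level had come down from its peak, the fold was 3.09.

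**Figure D2:**
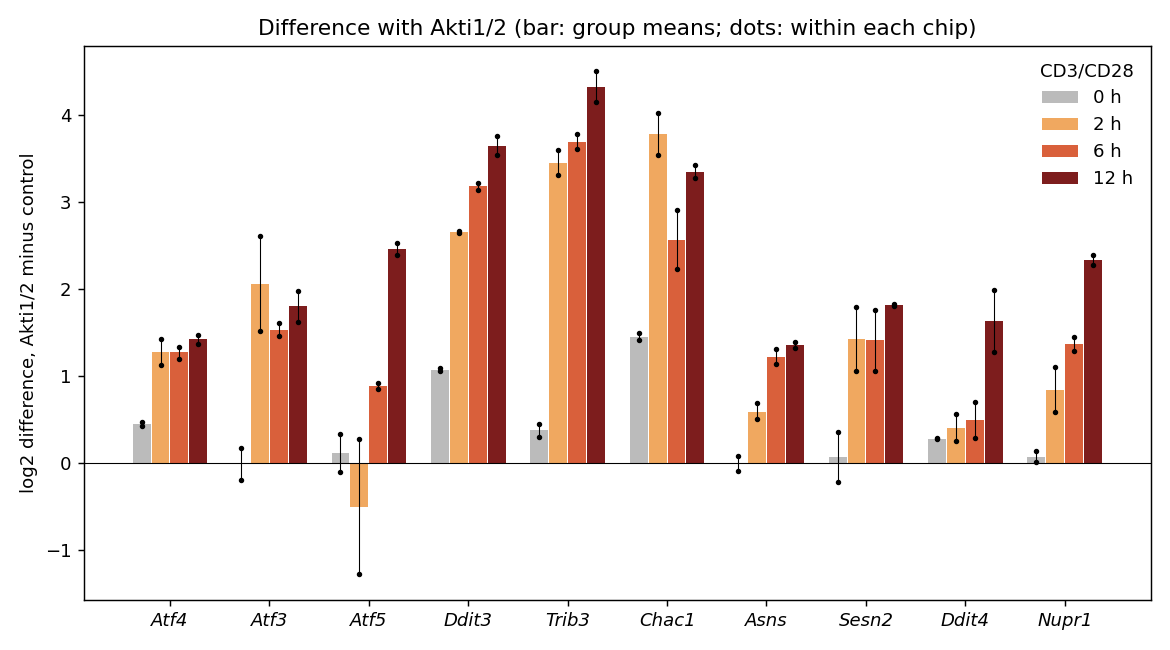
Difference in log2 intensity between Akti1/2-treated and control cells (y axis) for the 10 genes (x axis) at 0, 2, 6 and 12 h, with bars for the difference of the group means and dots for the difference within each chip. At 12 h the bars run from 1.35 (Asns) to 4.32 (Trib3), and at 2 h the dots of Atf5 fall on both sides of 0.

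The genes differed in when the gap opened. Of the 7 genes whose control arrays were above background at 0, 2, 6 and 12 h, it was largest at 12 h for 6 and at 2 h for Chac1. Atf3, Sesn2 and Nupr1 had control groups at background, so that their times are not ranked. As a share of the log2 difference at 12 h, the difference at 2 h was 89.2% for Atf4, 79.8% for Trib3 and 72.7% for Ddit3. It was 43.8% for Asns and 24.7% for Ddit4, and Atf5 had none of it on average. Ddit3, Trib3 and Atf4 thus had most of their difference by 2 h, when Atf5, which reached 5.50-fold at 12 h, had none.

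In the treated cells themselves, every member stood higher at 6 and 12 h than at 0 h. Exposure to the inhibitor lengthened with the time of stimulation, and no unstimulated treated cells were measured later, so stimulation and longer exposure cannot be told apart. Trib3 went up by 2.87 log2 from 0 h to 2 h, 3.45 to 6 h and 4.24 to 12 h. Ddit3 went up by 1.63, 2.38 and 2.74. Chac1, already high before stimulation, went up by 2.02, 1.72 and 2.15. Nupr1 was at least 7.33-fold higher at 12 h than at 0 h, and Atf3 was at least 3.67-fold higher at 2 h, at least 2.08-fold at 6 h and at least 2.30-fold at 12 h. These changes include treated arrays that entered the choice of the members, and they carry no test.

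Whether the genes changed over the time of stimulation without the inhibitor was tested in control cells. No unstimulated control cells were measured later than 0 h, so stimulation and time in culture cannot be told apart. Each time was compared with 0 h with limma and Benjamini-Hochberg adjustment over the 7395 genes, and a call needed an adjusted p under 0.05. The control arrays also enter the contrast on which the members were chosen, a choice that favours low control values. At 2 h, 1 of the 10 genes was called, and it was higher, where 4.42% of all genes were called higher and 5.86% lower. At 6 h, 4 were called, all higher, against 12.1% higher and 15.4% lower over all genes. At 12 h, 3 were called higher and 1 lower, against 12.7% and 15.1%. With arrays scaled to the same mean instead, the split over all genes moved from 327 higher and 433 lower to 223 and 637 at 2 h and from 898 and 1140 to 645 and 1460 at 6 h, and that of the members from 4 and 0 to 2 and 1 at 6 h. With quantile normalization without background correction, the members' split at 12 h was 3 and 0.

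Ddit4 rose at every time, by 1.61 log2 (SE 0.18, limma adjusted p = 0.0001) at 2 h, 1.2 (adjusted p = 0.000363) at 6 h and 0.85 (adjusted p = 0.00346) at 12 h. Within the chips its rise at 2 h was 1.44 and 1.77. Asns rose by 0.47 (SE 0.10, limma adjusted p = 0.00534) at 12 h, with 0.45 and 0.48 within the chips. Nupr1 rose by 0.52 (SE 0.13, limma adjusted p = 0.0119) at 6 h and by 1.03 (adjusted p = 0.000146) at 12 h, and against its background level at 0 h these were rises of at least 1.04-fold and at least 1.47-fold.

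The remaining calls were weaker. Atf4 rose by 0.36 log2 (SE 0.12, limma adjusted p = 0.0363) at 6 h, with 0.32 and 0.41 within the chips. Chac1 rose by 0.61 (SE 0.18, limma adjusted p = 0.0232) at 6 h, with 0.99 on one chip and 0.23 on the other. Sesn2 fell by 0.72 (SE 0.22, limma adjusted p = 0.0274) at 12 h, from a level at which 1 of the 2 arrays was above background, so that the measured fall is at least 1.03-fold. These 3 calls and that of Nupr1 at 6 h were lost in at least 1 other limma fit, and the calls of Sesn2 and Nupr1 were not tested where only genes above background on all 16 arrays were kept. By the J5 score of the study's methods, a measure of size on linear intensities, only Ddit4 at 2 and 6 h passed, which is 2 of the 9 calls. Leaving out the first 0 h control array or the first 6 h control array left 1 of the 4 calls at 6 h, and leaving out the second 0 h control array left 2.

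Ddit3, Trib3, Atf3 and Atf5 were not called in control cells at any time in the fit of all arrays. The values for Ddit3 were 0.06, 0.27 and 0.17 log2 (SE 0.10, limma adjusted p = 0.754, 0.0707 and 0.244) at 2, 6 and 12 h. Those for Trib3 were -0.20, 0.14 and 0.30 (SE 0.13, limma adjusted p = 0.343, 0.479 and 0.103), and Trib3 at 12 h was called without the second 12 h control array (adjusted p = 0.0257). Atf5 read -0.06, 0.27 and -0.39 (SE 0.31, limma adjusted p = 0.929, 0.577 and 0.395), and at 12 h it was called lower in 3 other fits, with an adjusted p as low as 0.0333: that of only the groups compared and those without either treated 2 h array. Atf3 read 0.76 (SE 0.26, limma adjusted p = 0.0861) at 2 h, with all but 1 of the arrays at background. Since Atf3 was tested only through treated arrays, its values here are a description.

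**Figure D3:**
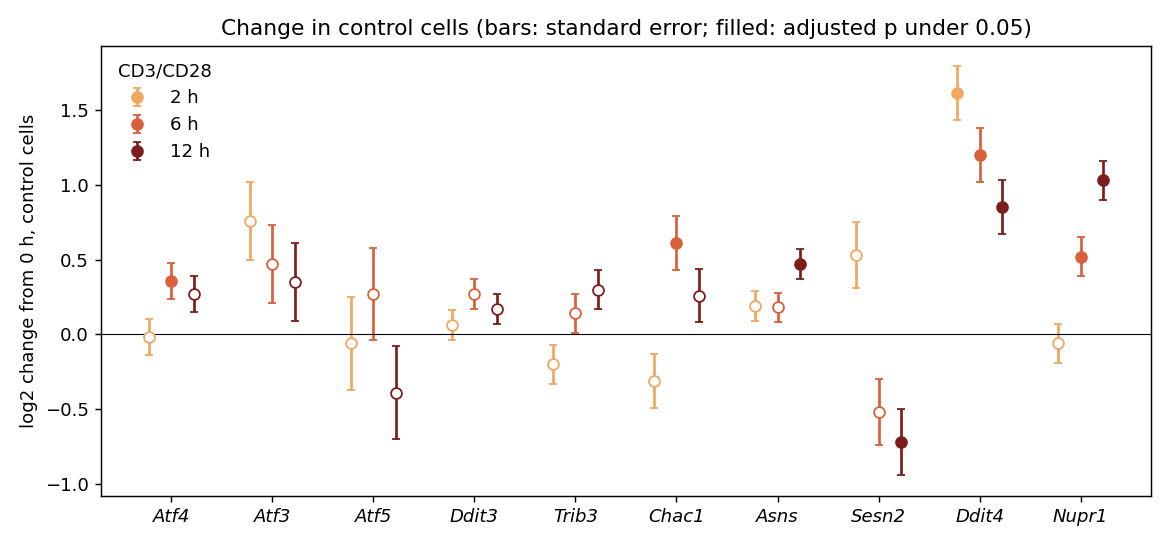
Change in log2 intensity from 0 h in control cells (y axis) for the 10 genes (x axis) at 2, 6 and 12 h, with error bars of 1 SE from the limma fit and filled points for an adjusted p under 0.05. Ddit4 stands apart at 2 h at 1.61, and Sesn2 at 12 h is the only filled point below 0.

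Across the 8 group means the 10 profiles were alike to different degrees. The Pearson correlation over the 45 pairs ran from 0.23 to 0.99, with a median of 0.79, and 10 pairs reached 0.9. It was highest for Ddit3 with Trib3 and with Atf4 (0.99 each) and lowest for Atf5 with Sesn2 (0.23). The 8 points share their arrays and treatments, and the members were chosen for 1 direction, so these values are descriptive. Among the 2815 other genes that ranged over at least 1 log2, the 8 whose profiles were most like the members' mean were Parvg (r = 0.991), Tgif1 (0.989), Fbxl18 (0.985), Cebpb (0.983), Col4a1 (0.982), Ppp1r15a, listed as Myd116 (0.982), D10Ertd641e (0.980) and Lag3 (0.979). Col4a1, a basement membrane collagen chain, differed by 0.05 log2 at 0 h and by 2.30, 4.21 and 4.48 at 2, 6 and 12 h, and Lag3, an inhibitory receptor of activated T cells, by 0.09, 0.55, 0.78 and 1.13.

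Other genes of the pathway were then compared between treated and control cells, from a list of 102 that left out the members and was not made blind to this contrast. Here rose and fell are relative to control cells of the same time. Of these, 93 were in the table. Those above background on fewer than 2 arrays, treated arrays included, were left out, and 69 were tested. At 0 h none was called by limma and none by the J5 score of the study's methods, and 8 had an unadjusted p under 0.05 (4 higher and 4 lower). Over all genes 0.0406% were called higher and 0.0135% lower at 0 h, which were 3 genes and 1 gene (6 and 1 with quantile normalization without background correction). At 2 h, 28 of the 69 were called higher and 3 lower, against 13.5% and 14.9% of all genes. At 6 h, 35 were higher and 8 lower, against 18.8% and 18.8%, and at 12 h, 41 were higher and 7 lower, against 24.2% and 24.8%. The median over the 69 genes was -0.01, 0.35, 0.52 and 0.61 log2 at 0, 2, 6 and 12 h. It was 0.35, 0.56 and 0.69 on the first chip at 2, 6 and 12 h and 0.34, 0.51 and 0.64 on the second, and every called gene had the same sign on both chips. Scaled to the same mean, the split over all genes at 6 h moved from 1391 higher and 1388 lower to 1718 and 1107, and that of the 69 genes to 38 and 7. In control cells without the inhibitor, 4 of the 69 were higher and 5 lower at 2 h (2 and 8 when scaled to the same mean, 8 and 6 with quantile normalization without background correction), 14 and 8 at 6 h, while 16 and 6 were called at 12 h.

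Upstream in the pathway, calls went both ways. Over all genes 13.5%, 18.8% and 24.2% were called higher at 2, 6 and 12 h, and 14.9%, 18.8% and 24.8% lower. Of 4 kinases and kinase partners tested, none was called higher, and 1, 2 and 1 were called lower at 2, 6 and 12 h. The kinases among them were Eif2ak1 and Eif2ak2. Eif2ak3 (PERK) had no entry and Eif2ak4 (GCN2) was above background on no array, so these kinases were not tested. Eif2ak2 (PKR), the kinase activated by double-stranded RNA, fell by 0.70, 0.69 and 0.57 log2 (SE 0.14, limma adjusted p = 0.00293, 0.00177 and 0.00395). Of the 9 genes for eIF2, its exchange factor eIF2B and its phosphatase, 2, 1 and 2 were higher and 0, 1 and 2 lower. The largest difference among the 9 was that of Ppp1r15a (GADD34), which directs the phosphatase to eIF2 and is itself a target of the response. Ppp1r15a read 7.95 and 7.69 in control and 9.45 and 9.34 in treated cells at 2 h. It rose by 1.58, 1.44 and 2.44 log2 (SE 0.18, limma adjusted p = 0.000112, 6.84e-05 and 6.29e-07). Eif2b1, a regulatory subunit of eIF2B, fell by 0.41 at 6 h and 0.76 at 12 h (SE 0.10, limma adjusted p = 0.00778 and 7.68e-05).

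Among bZIP partners and relatives of ATF4, 3, 5 and 6 of 7 tested were higher at 2, 6 and 12 h and 0, 1 and 0 lower. Cebpg, Cebpa, Atf1 and Creb1 were above background on no array and were not tested. Cebpb, a C/EBP partner of ATF4 and CHOP, read 9.58 and 9.51 in control and 11.84 and 11.62 in treated cells at 2 h. It rose by 2.19, 2.03 and 2.35 log2 (SE 0.12, limma adjusted p = 2.45e-07, 2.6e-07 and 4.45e-08). Jdp2, a repressor related to ATF3, rose by 1.51, 1.5 and 2.01 (SE 0.26, limma adjusted p = 0.00153, 0.000712 and 4.82e-05), and Xbp1, the factor spliced by IRE1, by 1.00, 1.57 and 1.53 (SE 0.13, limma adjusted p = 0.000249, 3.57e-06 and 1.88e-06). Splicing of Xbp1 was not analysed here. Atf7, also called at 6 and 12 h, was above background on only 2 of the 16 arrays, both of treated cells, so it was tested only through them. At 6 h it was above background on no array. Its calls, counted among the 5 and 6 above, are therefore a description.

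Of 10 amino acid synthesis genes with an entry, 6 were tested. Psph, Pycr1, Cth and Cbs were above background on no array, treated or control, and were not tested. All 6 synthesis genes tested were higher at 2, 6 and 12 h, with medians of 0.84, 1.10 and 0.80 log2 (5 of 6 at 2 h when scaled to the same mean). Gpt2, an alanine transaminase, rose by 1.16, 2.37 and 2.15 (SE 0.11, limma adjusted p = 3.21e-05, 2.98e-08 and 4.92e-08), and Aldh18a1, which starts proline synthesis, by 1.54, 1.24 and 0.94 (SE 0.16, limma adjusted p = 5.85e-05, 8.4e-05 and 0.000354). The folate cycle enzymes of the mitochondrion, Mthfd2 and Shmt2, rose by 1.08 and 0.59 at 2 h and by 0.66 and 1.01 at 12 h. Of 5 transporter genes tested, 4, 3 and 4 were higher and 0, 0 and 1 lower. Slc7a11, Slc7a1 and Slc7a3 were above background on no array, treated or control, and were not tested. The glycine transporter Slc6a9 rose by 1.05, 2.29 and 2.43 (SE 0.15, limma adjusted p = 0.00041, 6.04e-07 and 1.49e-07), and the glutamine transporter Slc38a2 by 1.12, 1.19 and 1.42 (SE 0.14, limma adjusted p = 0.000218, 4.99e-05 and 5.73e-06). Slc1a4, a carrier of neutral amino acids, was at least 4.63-fold higher at 2 h (limma adjusted p = 5.97e-06). Slc3a2, the shared chain of several transporters, was at least 2.00-fold higher at 2 h (limma adjusted p = 0.000707). Of its 8 arrays above background only 1, at 12 h, was a control array, so Slc3a2 was tested only through treated arrays. Its calls, counted above, are therefore a description.

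Of 11 tRNA synthetase genes, 5 were higher at 2 h and 9 at both 6 and 12 h, and none was lower, with medians of 0.32, 0.79 and 0.78 log2. Aars, for alanine, rose by 0.46, 1.24 and 1.12 (SE 0.12, limma adjusted p = 0.0163, 1.49e-05 and 1.42e-05), and Eprs, Nars and Sars by 1.02, 1.17 and 0.91 at 6 h. Sars was not called at 2 h, at 0.28 (SE 0.16, limma adjusted p = 0.219).

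Of 11 other targets of ATF4 or CHOP tested, 5, 7 and 8 were higher and 1, 2 and 1 lower. Vldlr, Gdf15, Fgf21 and Ero1l were above background on no array, treated or control, and were not tested. Sqstm1, the autophagy receptor p62, read 10.14 and 10.18 in control and 13.19 and 13.15 in treated cells at 12 h, and rose by 0.48, 1.30 and 3.01 log2 (SE 0.12, limma adjusted p = 0.00933, 6.31e-06 and 3.83e-09). Herpud1, a component of endoplasmic reticulum-associated degradation, rose by 1.73, 1.66 and 1.94 (SE 0.12, limma adjusted p = 3.9e-06, 1.6e-06 and 2.16e-07). Eif4ebp1, a translation repressor held off by mTORC1, rose by 0.87, 1.67 and 1.52 (SE 0.12, limma adjusted p = 0.00033, 1.2e-06 and 8.81e-07). Bbc3 (PUMA), a pro-apoptotic BH3-only gene, read -0.02 at 2 h (adjusted p = 0.914) and rose by 1.47 at 6 h and 2.15 at 12 h (SE 0.11, limma adjusted p = 2.37e-06 and 6.78e-08); its control level went from 8.69 to 6.92 between 2 and 12 h while the treated level was 8.67 and 9.07. Cdkn1a, the cell cycle inhibitor p21, named here after its values were seen, was lower at each of these times, by -0.91, -1.32 and -1.34 log2.

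Of 4 paralogs of the members tested, 0, 2 and 2 were higher and 1, 0 and 0 lower at 2, 6 and 12 h. Over all genes 13.5%, 18.8% and 24.2% were called higher and 14.9%, 18.8% and 24.8% lower, and with 4 genes nothing is read from these counts. Trib2 rose by 0.50 and 1.14 log2 at 6 and 12 h (SE 0.15, limma adjusted p = 0.0187 and 5.25e-05). Sesn3 rose by 0.80 and 0.90 at 6 and 12 h (SE 0.22, limma adjusted p = 0.0117 and 0.00408).

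Genes of the other branches of the endoplasmic reticulum stress response, IRE1 and ATF6, were listed as a group of their own. Xbp1, the factor spliced by IRE1, and Herpud1, of endoplasmic reticulum-associated degradation, were counted in other role groups. Both were called higher there at 2, 6 and 12 h. Of 12 tested, 3, 2 and 4 were higher and 0, 2 and 2 lower. The shares over all genes were 13.5%, 18.8% and 24.2% higher and 14.9%, 18.8% and 24.8% lower. With 12 genes, nothing is read from these counts. The medians of the 12 were -0.09, 0.18 and 0.22 log2 (the first was 0.03 when scaled to the same mean). Hspa5 (BiP), the main chaperone of the compartment, named as the reference gene of these branches after its values were seen, differed by -0.20, -0.26 and 0.34 (SE 0.39, limma adjusted p = 0.738, 0.647 and 0.504). It was above background on 14 arrays, and its change of 0.97 log2 at 6 h in control cells was not called either (limma adjusted p = 0.0904). With this spread, a lack of change cannot be read from it. Dnajb9 rose by 0.72, 1.14 and 0.82 (SE 0.22, limma adjusted p = 0.0277, 0.0015 and 0.00761). Calr, a lectin chaperone, rose by 1.02 at 2 h and then fell by 0.54 and 0.65 at 6 and 12 h (SE 0.18, limma adjusted p = 0.00184, 0.0353 and 0.0102). Syvn1, a ubiquitin ligase of the degradation pathway, read -0.40 at 2 h (limma adjusted p = 0.0583) and rose by 0.70 and 0.86 at 6 and 12 h (SE 0.15, limma adjusted p = 0.00262 and 0.000374). With the other scalings tried, no count of called genes in any of the 9 role groups changed by more than 1 gene in either direction.

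**Figure D4:**
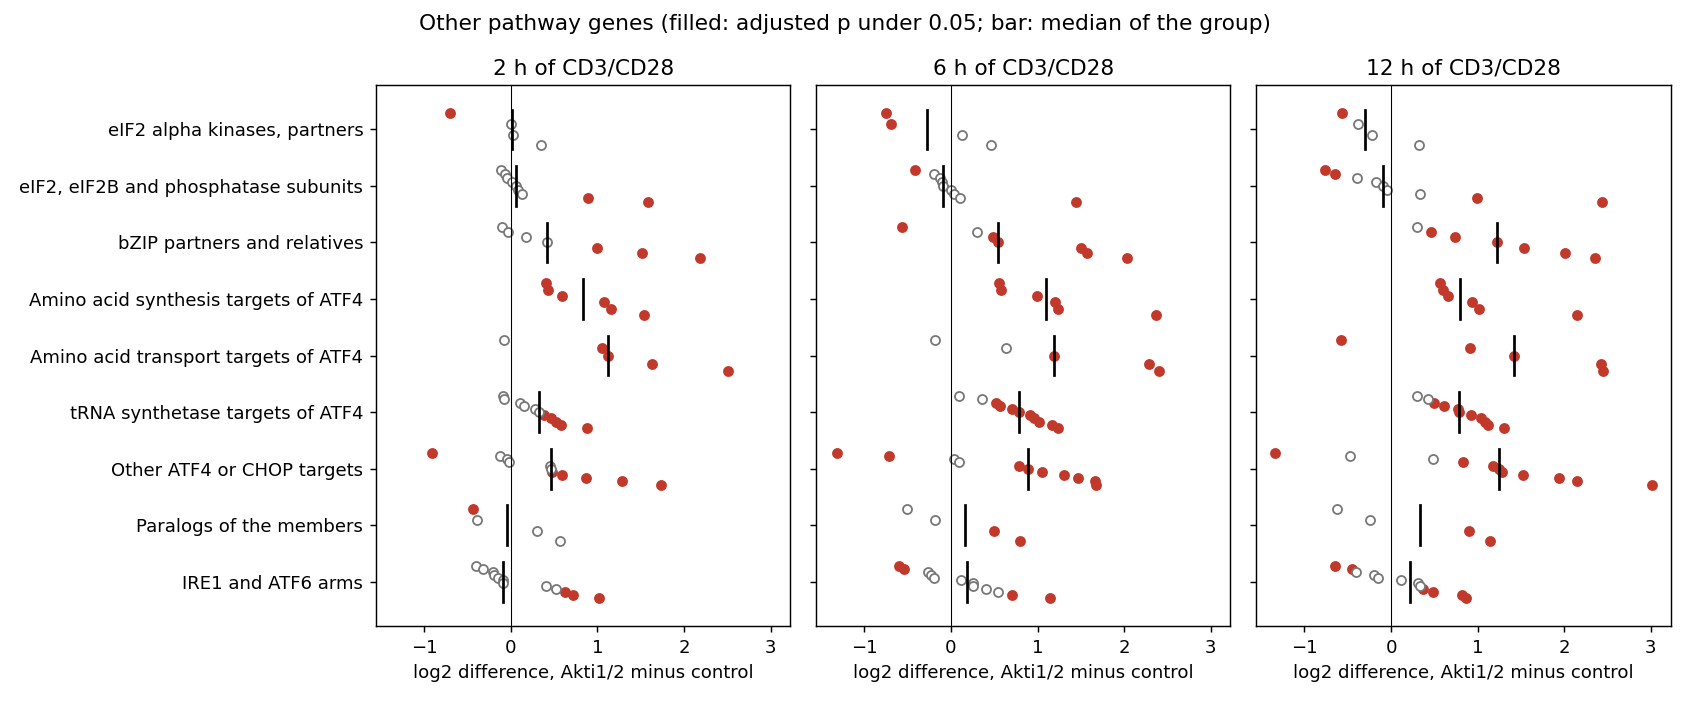
Difference in log2 intensity between Akti1/2-treated and control cells (x axis) for the 69 other pathway genes by role (y axis) at 2, 6 and 12 h, with 1 point per gene, filled for an adjusted p under 0.05, and a bar at the median. All 6 amino acid synthesis genes tested are filled and right of 0 at the 3 times, the kinase group has its filled points left of 0, and the IRE1 and ATF6 group has them on both sides at 6 and 12 h.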

How the data were processed

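D10 cells were profiled on Illumina mouse RefSeq8 arrays. The authors deposited bead intensity values summarised per gene and array, without normalization or background subtraction, for 18138 genes and 832 control entries (798 negative controls). The scanner software version is not given in the sources used here. Median intensity per array was 119.4 to 148.6, and 2 arrays a group limit the precision. Intensities were corrected and quantile-normalized with neqc (offset 16), and all 8 groups were fitted in 1 model (lmFit, eBayes, 8 residual and 4.26 prior degrees of freedom) with limma 3.58.1 in R 4.3.3, with Python 3.11.15 for tables. The methods of the study name the J5 score, which has no error term and was run as an alternative (threshold 20, arrays scaled to their 95th percentile). The paper chose a threshold for each time and states 20 only for 2 h, so a score under 20 at other times need not fail its own criterion. Its gene lists compared stimulated with unstimulated cells, while J5 was applied here also to treated against control cells of the same time. Members, lists and tests were chosen with earlier results of these data known. The pathway genes named are, per role, up to 4 called at 2 or more times with the largest mean absolute difference, and exceptions are marked. Detection p-values were computed here. Of the pathway genes, 2 were matched by gene identifier (Ppp1r15a and Manf). Scripts were tested on simulated data.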

Additional observations from a re-analysis of the deposited data

Results flagged for a closer look

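With 2 arrays a group, no array could be tested as an outlier within its group. In 5 cases a member moved one way in both control arrays and the other way in both treated arrays, relative to the 0 h arrays of the same treatment. The differences between those 2 changes were not tested, since the members were chosen on the inhibitor contrast. They were 3.07 log2 for Trib3 at 2 h (-0.20 in control and 2.87 in treated cells), 2.33 for Chac1 at 2 h (-0.31 and 2.02), 2.35 for Atf5 at 12 h (-0.39 and 1.96), and 1.33 at 6 h (-0.52 and 0.81) and 1.75 at 12 h (-0.72 and 1.03) for Sesn2. The 12 h and 6 h control arrays of Sesn2 were all at background, so its falls are only bounds, of at least 1.03-fold and 1.05-fold, and at 6 h it moved by -1.03 on one chip and by only -0.01 on the other. Of these control changes only that of Sesn2 at 12 h was called.

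Among the pathway genes named, Calr and Syvn1 had inhibitor differences of opposite sign at 2 h and at later times of stimulation. For Calr the difference at 6 h less that at 2 h was -1.56 log2, and at 12 h less that at 2 h -1.68. For Syvn1 these were 1.09 and 1.26. The change between times was not tested.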

How the results depend on the processing

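No change of a member in control cells reversed under the alternatives run, nor did any inhibitor difference of a pathway gene named by the rule above. The members' own inhibitor differences were followed only as medians, and Hspa5, Cdkn1a, Col4a1 and Lag3 were not followed singly. Some role-group medians near 0 at 2 h changed sign when scaled to the same mean. They went from 0.06 to -0.05 for eIF2, eIF2B and phosphatase genes, from -0.05 to 0.13 for paralogs and from -0.09 to 0.03 for IRE1 and ATF6 genes. With quantile normalization without background correction, that of the paralogs was 0.01. Of the 4 members called in control cells at 6 h, 2 were called in a fit of only the groups compared and 1 by the J5 score, and of the 4 at 12 h, 2 were called with only genes above background on all 16 arrays and 0 by J5. Leaving out 1 array at a time gave 1 call at 2 h in each case, 1 to 4 at 6 h and 3 to 5 at 12 h. Of the other pathway genes, 31, 43 and 48 were called at 2, 6 and 12 h by limma and 2, 8 and 7 by J5. With 1 array left out the counts were 0 at 0 h in each case, 23 to 32 at 2 h, 36 to 44 at 6 h and 43 to 51 at 12 h. The median member difference at 2, 6 and 12 h was 0.84, 0.87 and 1.39 with quantile normalization without background correction (the cause was not tested). With only genes above background on all arrays, which leaves out Atf3, Atf5, Sesn2 and Nupr1, it was 0.41, 1.96, 1.91 and 2.49 at 0, 2, 6 and 12 h. With 1 array left out it was 0.19 to 0.34 at 0 h (0.34 without the first control array), 1.29 to 1.41 at 2 h, 1.31 to 1.51 at 6 h and 2.07 to 2.23 at 12 h. The remaining array of such a group takes its spread from the rest of the fit.

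The replicate number does not pair the samples: deviations of same-numbered arrays correlated at -0.296 to 0.264 (28 pairs). With the replicate number as a block, 32, 44 and 49 pathway genes were called at 2, 6 and 12 h, and 1, 4 and 4 members in control cells. With the chip as a block these were 32, 43 and 50, and 1, 4 and 4. Of the 9 calls of members in control cells, 4 were lost in at least 1 other limma fit, 3 were not tested under the filter on all 16 arrays and 7 did not pass J5. Of the 76 calls of the pathway genes named, these counts were 15, 12 and 62. Calls were gained in at least 1 fit for 3 of 21 uncalled member changes (Atf5 and Trib3 at 12 h, Sesn2 at 6 h) and 4 of 36 uncalled pathway differences. Arrays at or near background limit Atf3, Sesn2 and Nupr1, and Slc3a2, Slc1a4, Sesn3 and Atf7 among the pathway genes named.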
